A study of Mus musculus with 14 samples.

Results

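The core splicing factor genes were followed by RNA-seq in 2-cell mouse embryos cultured with or without lactate. Members were all genes of the count table whose symbol is Snrp, Sf3a, Sf3b, Prpf, Lsm or Srsf followed by the letters or number of one family member, and 59 of the 56923 genes matched. They comprised 13 Snrp, 13 Lsm, 9 Sf3, 13 Prpf and 11 Srsf genes. All but Snrpert, which is annotated as a processed pseudogene of Snrpe, code for protein.

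The 14 libraries came from 7 groups of 2. ICR females were superovulated and mated with ICR males, and each library pooled 5 embryos, so that a value is the average of a pool. Early 2-cell embryos were collected 30 h and late 2-cell embryos 54 h after hCG, the hormone that triggers ovulation. The G&N embryos were cultured in mKSOM, an embryo medium, with lactate (10 mM), 5 µM Gne140, an inhibitor of lactate dehydrogenase, and 50 µM nicotinamide mononucleotide (NMN), given to restore NAD+. The G&N-L embryos received the same inhibitor and NMN but no lactate from 24 h after hCG, so that both arms carried the drugs and differed in lactate. Both groups were sampled at both stages. Another late group was grown as G&N-L from zygotes injected with 1 mM lactyl-CoA (Lac-CoA), a donor of lactyl groups. For the late H3K18R and WT groups, zygotes were injected 14 h after hCG with H3 mRNA (the H3.1, H3.2 and H3.3 forms together), either mutated at lysine 18 or wild-type, and kept their own histone genes. No inhibitor is stated for them, so they were tested only against each other. The labels give 3 replicates per group, of which 2 were counted here, and nothing says that the pools came from separate collections. The p-values therefore measure the spread between these libraries.

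Libraries held 20350427 to 61275465 counts, and 56 to 59 members had at least 1 count in a library. H3c1, an H3.1 gene, held 43643 and 83390 counts in the H3K18R libraries, 4 and 3 in the WT libraries and 0 to 66 elsewhere, so that this gene sets the H3K18R libraries apart but does not show the wild-type mRNA injected into WT. Embryo identity was checked with marker lists. All 12 genes of an oocyte-derived mRNA list were detected in every library, with summed levels of 20900 to 28100 CPM (counts relative to the TMM-adjusted library size) at the early stage and 3612 to 19290 CPM at the late stage. A list of 11 genes activated in 2-cell embryos summed to 571 to 951 CPM early and to 1136 to 3537 CPM late. Markers of cumulus and granulosa cells, which surround the oocyte, summed to only 9.53 to 40.7 CPM, with 2 to 9 of 15 detected.

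Pre-mRNA splicing is carried out by the spliceosome, which assembles on each intron from small nuclear ribonucleoproteins (snRNPs). Each of the U1, U2, U4 and U5 snRNPs holds a ring of Sm proteins around its RNA, U6 holds a related ring of Lsm proteins, the Sf3a and Sf3b complexes clamp the branch site within U2, Prpf proteins build and activate the catalytic core, and Srsf proteins bind exons and recruit the machinery. A mammalian oocyte stores mRNA for these proteins, and the embryo replaces the stored mRNA with its own transcripts when its genome is activated, which in the mouse happens mainly at the 2-cell stage.

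Several members share sequence with processed copies elsewhere in the genome, and the pair in which the copy held more counts than the member is shown here. Capitals mark the bases that differ, positions are counted from 1 at the first base of the coding sequence, the member's base comes first, and sequences and coordinates are from GRCm39 (mm39), the build of the files. Snrpf (chr10:93418609-93425568, minus strand) and the processed pseudogene Gm13092 (chr4:150399634-150399893, minus strand) were identical at 252 of 255 aligned bases and differed by C27T, A35G and G39A.
Snrpf coding sequence: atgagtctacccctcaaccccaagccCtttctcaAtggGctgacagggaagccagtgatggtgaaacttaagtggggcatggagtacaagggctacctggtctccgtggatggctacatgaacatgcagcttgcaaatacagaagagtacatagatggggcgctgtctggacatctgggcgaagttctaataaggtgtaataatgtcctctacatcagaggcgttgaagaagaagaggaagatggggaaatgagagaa
Gm13092 aligned to Snrpf: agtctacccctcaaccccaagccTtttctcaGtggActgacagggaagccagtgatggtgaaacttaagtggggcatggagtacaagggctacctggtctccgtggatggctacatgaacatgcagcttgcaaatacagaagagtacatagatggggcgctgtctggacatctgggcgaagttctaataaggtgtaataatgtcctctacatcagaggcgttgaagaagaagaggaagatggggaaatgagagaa
Over all libraries, Gm13092 held 13488 counts, which was 569% of the counts of Snrpf, whereas Snrpert held 10.5% of the counts of Snrpe. The low counts of Snrpf are therefore uncertain, since reads of the pair can be split between them. Altogether 22 members had a near-identical copy, defined as at least 90% identity over at least 80% of the coding sequence. Among them, Gm10146 matched Lsm7 at 100% identity and held 36.1% of its counts, and Gm7846 matched Lsm5 at 97.8% identity and held 52.0% of its counts. Further, 32 members overlap another annotated gene, among them Snrpd2 (Qpctl, opposite strand), Snrpd3 (Gucd1, opposite strand) and Snrpa1 (Gm45213, same strand). Reads from pairs on opposite strands cannot be told apart where the counting did not use strand. Pairs on the same strand are not separated by strand in either case.

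Within a particle, transcript levels differed widely, and the order of its members changed between the stages. Levels are given here as CPM per kb of the annotated canonical transcript, the scale on which genes can be compared. In the Sm ring without Snrpf, Snrpe was the highest of 6 genes in every early library, at 758 to 1060 CPM per kb, and Snrpb, which codes for the SmB protein, was the lowest, at 0 to 2.86 CPM per kb. The ratio of the highest to the lowest was 266 to 641 in the 3 early libraries in which Snrpb had counts, and 27.7 to 85.8 in the 10 late libraries. At the late stage Snrpg or Snrpe was the highest and Snrpd3 or Snrpb the lowest. The 6 mRNAs were thus less unequal in every late library than in those 3 early ones. These ratios leave out Snrpn, the paralog of Snrpb, which was at 6.58 to 10.9 CPM per kb in the early libraries.

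In the Sf3b complex the leading gene changed. Sf3b1, the large subunit that holds the branch site, led the 6 genes in all 4 early libraries, at 77.0 to 131 CPM per kb. Sf3b6, a small subunit that lies beside the branch adenosine, led in all 10 late libraries, at 48.0 to 646 CPM per kb. Among Lsm2 to Lsm8, the ring of U6, Lsm2 led in 13 of 14 libraries and Lsm3 in 1 early G&N-L library.

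**Figure D1:**
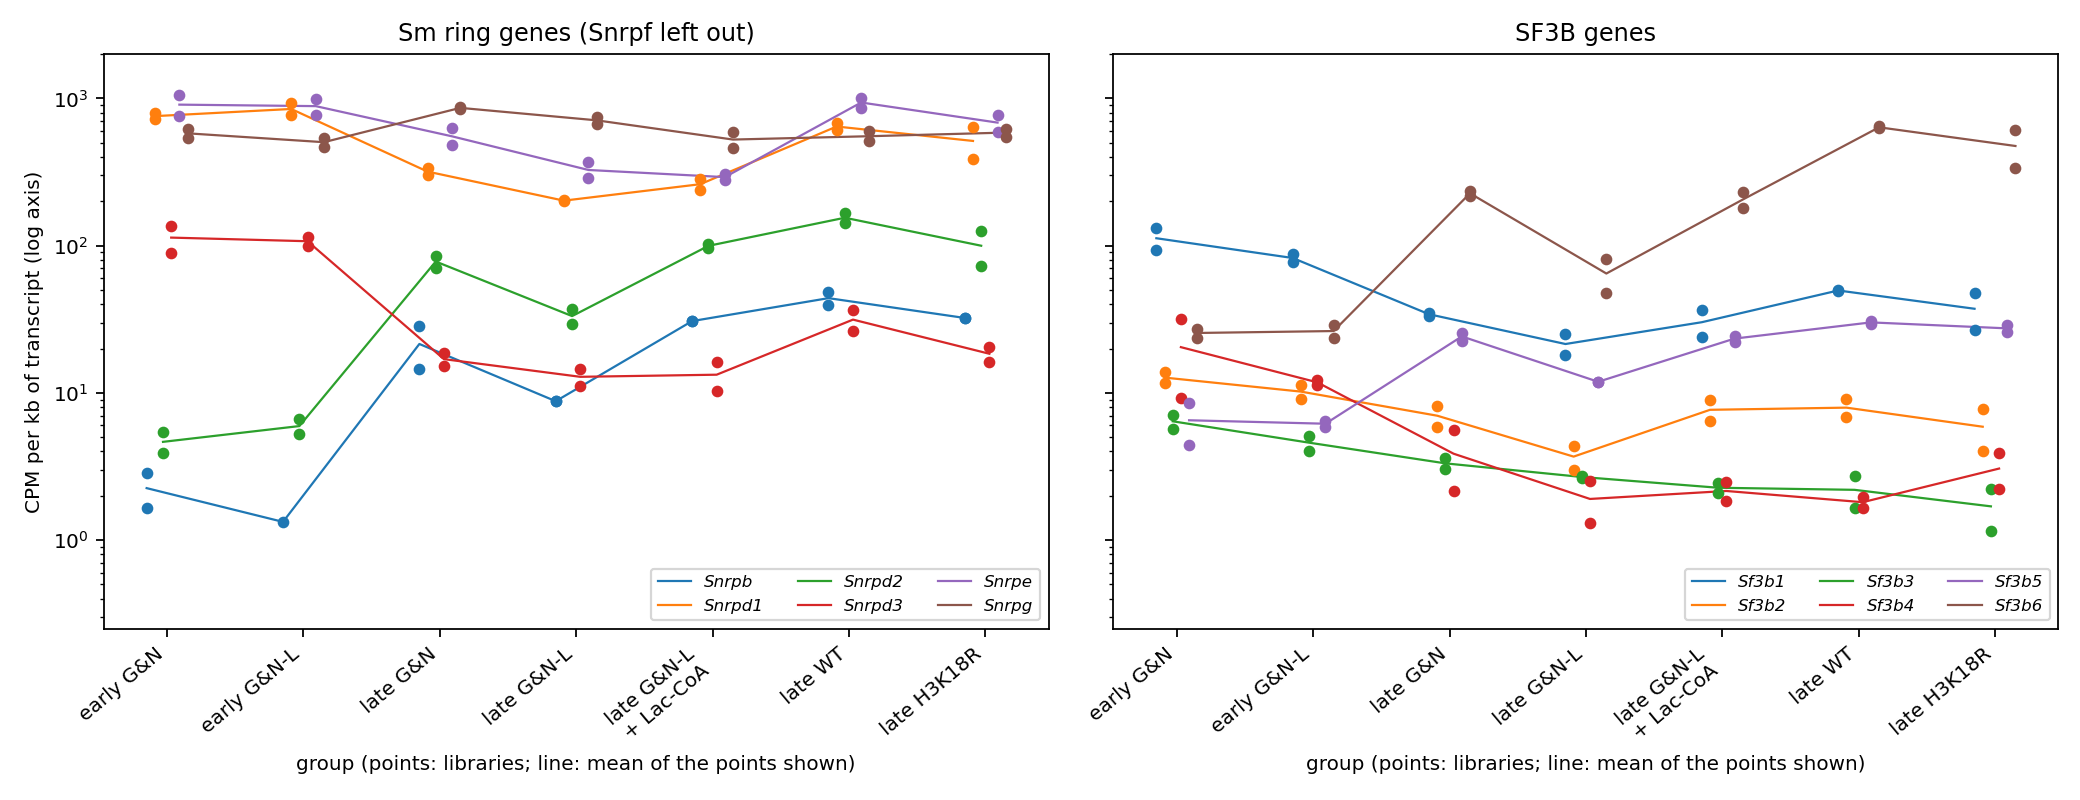
Levels of 6 Sm ring genes (left) and 6 Sf3b genes (right) in the 7 groups, in CPM per kb of transcript on a log axis, with a point for each library and a line through the means. The early G&N-L library in which Snrpb had no read is not drawn for that gene. In early embryos Snrpb and Snrpd2 lie far below the other Sm genes and Sf3b1 leads Sf3b, whereas Sf3b6 leads Sf3b in every late group.

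The stage comparison asked how the splicing genes moved between 30 h and 54 h in embryos with lactate. Between early and late G&N, 8 of 57 tested members rose and 6 fell, by edgeR's quasi-likelihood test at an adjusted p (Benjamini-Hochberg) under 0.05. Over all tested genes, 8.18% rose and 5.47% fell. Changes in both directions occurred within 1 particle. Snrpc, Snrpd2, Snrpb, Sf3b6, Sf3b5, Srsf7, Srsf1 and Prpf4 rose, whereas Snrpd3, Snrpb2, Snrpd1, Lsm3, Sf3b1 and Srsf3 fell.

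In the Sm ring, Snrpd2, which codes for SmD2, was at 5.51 and 7.68 CPM in early G&N and at 101 and 121 CPM in late G&N. It was low in both early libraries and high in both late ones, and rose 15.7-fold (log2 fold change 3.97 ± 0.40 SE, adjusted p = 0.00788 by edgeR). Snrpd3, which codes for SmD3, was at 274 and 419 CPM early and at 46.8 and 56.7 CPM late. It moved the other way without overlap, falling 7.20-fold (adjusted p = 0.0132 by edgeR). Snrpd1, for SmD1, fell 2.53-fold, from 542 and 594 CPM to 226 and 251 CPM (adjusted p = 0.0303 by edgeR). Snrpb was at 3.32 and 1.91 CPM early and at 16.9 and 33.0 CPM late, and rose 9.16-fold (adjusted p = 0.0293 by edgeR). SmD1 and SmD2 form a pair before they enter the ring, as do SmB and SmD3, and in both pairs 1 mRNA rose and the other fell. The other 3 ring genes did not pass. Snrpe was at 548 and 763 CPM early and 347 and 452 CPM late (adjusted p = 0.145 by edgeR), and Snrpg was at 568 and 659 CPM early and 903 and 925 CPM late (adjusted p = 0.252). Snrpf was under 10 CPM in all 14 libraries. Snrpn, the paralog of Snrpb that is imprinted and expressed mainly in brain, was at 41.6 and 31.5 CPM early and 24.6 and 49.2 CPM late, and its groups overlapped.

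Among the proteins particular to U1 and U2, Snrpc, the U1-C protein that stabilises pairing with the 5′ splice site, was at 9.16 and 7.20 CPM in early G&N and at 118 and 195 CPM in late G&N. Its 18.3-fold rise was the largest among the members (log2 fold change 4.19 ± 0.38 SE, adjusted p = 0.00689 by edgeR). Snrpb2, the U2-B″ protein, was at 754 and 969 CPM early and at 213 and 218 CPM late, and fell 4.27-fold (adjusted p = 0.0152 by edgeR). Snrpa1, its partner U2-A′, was at 58.0 and 52.6 CPM early and at 114 and 110 CPM late, a difference that did not pass (log2 fold change 0.94 ± 0.26 SE, adjusted p = 0.065 by edgeR), although the libraries did not overlap.

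In Sf3b, Sf3b1 fell 3.43-fold, from 813 and 582 CPM to 207 and 218 CPM (adjusted p = 0.0143 by edgeR), while Sf3b6 rose 8.35-fold, from 28.2 and 32.5 CPM to 259 and 280.1 CPM (adjusted p = 0.00719). Sf3b5, another small subunit, rose 3.59-fold, from 33.0 and 17.0 CPM to 87.0 and 98.7 CPM (adjusted p = 0.0336 by edgeR). Both small subunits were thus low early and high late, and the large one the reverse. The other 6 Sf3 genes had negative log2 fold changes and did not pass.

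In the Lsm family, Lsm3 was the single member that passed. It was at 236 and 229 CPM early and at 57.6 and 52.8 CPM late, and fell 4.45-fold (adjusted p = 0.0109 by edgeR). Lsm1, which replaces Lsm8 in the cytoplasmic ring that promotes mRNA decay, was at 311 and 360.4 CPM early and 309 and 329 CPM late. Lsm14b, a component of cytoplasmic mRNA storage particles in oocytes, was at 42.2 and 29.0 CPM early and 44.4 and 37.6 CPM late, and both genes overlapped between the stages. Among the Prpf genes, Prpf4, a protein of the U4/U6 particle, rose 4.63-fold, from 4.51 and 5.88 CPM to 31.3 and 19.9 CPM (adjusted p = 0.0498 by edgeR). Prpf8, the core protein of U5 that cradles the active site, was at 11.1 and 8.09 CPM early and 26.0 and 27.8 CPM late without passing (adjusted p = 0.0697 by edgeR). Prpf19, a ubiquitin ligase that activates the spliceosome, stayed under 10 CPM in all libraries.

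Of the SR proteins, Srsf7 was at 49.5 and 41.9 CPM early and at 233 and 442 CPM late, and rose 7.02-fold (adjusted p = 0.0141 by edgeR). Srsf1, a founding member of the family, was at 17.3 and 16.4 CPM early and at 102 and 78.6 CPM late, and rose 5.09-fold (adjusted p = 0.0145 by edgeR). Srsf3, a small SR protein that binds pyrimidine-rich RNA, fell 2.52-fold, from 219.5 and 169.8 CPM to 68.4 and 93.5 CPM (adjusted p = 0.0372 by edgeR).

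**Figure D2:**
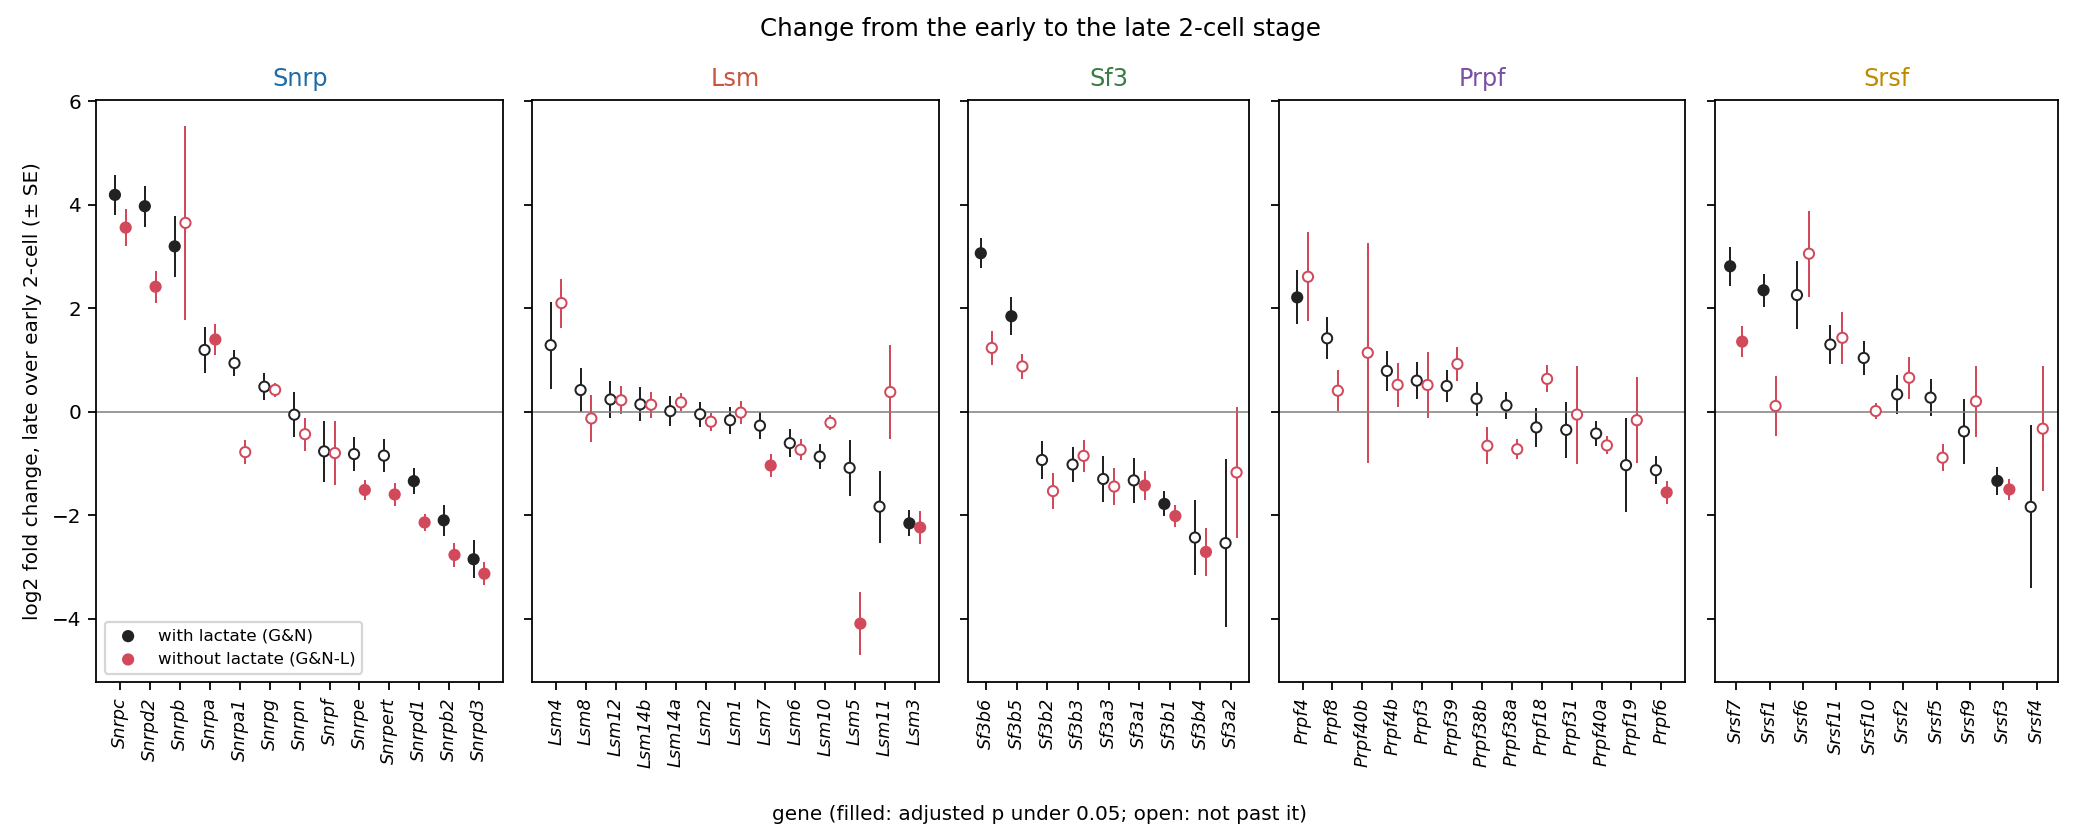
Log2 fold change (± SE) from the early to the late 2-cell stage for each member, by family, in embryos with lactate (G&N) and without lactate (G&N-L). Filled points passed the test. Snrpc and Snrpd2 lie highest and Snrpd3 and Snrpb2 lowest among the Snrp genes in G&N, and 49 of 57 genes have the same sign in both cultures.

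Without lactate, 4 of 58 tested members rose and 13 fell between the stages, against 5.97% and 5.87% of all tested genes (edgeR, adjusted p under 0.05). Snrpc rose from 12.8 and 7.49 CPM to 144 and 106 CPM (log2 fold change 3.56 ± 0.35 SE, adjusted p = 0.00852 by edgeR). Snrpd2 rose from 9.45 and 7.44 CPM to 52.4 and 42.0 CPM (log2 fold change 2.42 ± 0.31 SE, adjusted p = 0.0146 by edgeR). Both genes thus rose in either medium. Snrpd3 fell from 350.1 and 305 CPM to 44.4 and 34.1 CPM (log2 fold change -3.13 ± 0.22 SE, adjusted p = 0.00512 by edgeR), Snrpd1 fell from 693 and 578 CPM to 153 and 150.0 CPM (adjusted p = 0.00538), Snrpb2 from 893 and 660 CPM to 103 and 137 CPM (adjusted p = 0.00629), and Sf3b1 from 546 and 478 CPM to 111 and 155 CPM (adjusted p = 0.00933). For Snrpb, 1 of the early G&N-L libraries had no read and the other 34 counts, against 392 and 387 counts late, and the test did not pass (adjusted p = 0.263 by edgeR). Srsf1 was at 26.5 and 9.07 CPM early and 15.8 and 24.2 CPM late, and its libraries overlapped. Sf3b6 was at 34.4 and 28.2 CPM early and 96.8 and 57.1 CPM late (log2 fold change 1.23 ± 0.33 SE, adjusted p = 0.0709 by edgeR). Snrpa1 was at 72.8 and 59.7 CPM early and 35.0 and 46.0 CPM late, lower in both late libraries, where in G&N it was higher (adjusted p = 0.0853).

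The stage comparisons with and without lactate share no library. Over the 57 members tested in both, their log2 fold changes correlated with r = 0.841 and rho = 0.835, and 49 had the same sign. All 22 members that passed in either comparison, among them Snrpe and its pseudogene Snrpert, had the same sign in both. Snrpd2, Snrpc and Srsf7 rose in both, and Sf3b1, Snrpb2, Lsm3, Snrpd3, Srsf3 and Snrpd1 fell in both, which makes 9 of the 14 members called with lactate and of the 17 called without it. Members are not independent of each other, and both comparisons use pools of the same strain. The agreement was not computed over all genes, so it is not shown to be particular to the members.

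The number called depended on single libraries. With lactate 14 members were called, and 2 were without either late G&N library. The calls over all genes fell with them, from 13.7% to 0.98% without late G&N replicate 1 and 1.27% without replicate 2. Without lactate 17 members were called, and 4 were without late G&N-L replicate 1, 8 without replicate 2, and 10 without either early G&N-L library. Over all genes the share went from 11.8% to 1.58% and 3.18% without a late G&N-L library, and to 6.37% and 5.49% without an early one. The direction of each named fall or rise called in G&N held without any 1 library. DESeq2 called 14 members higher and 12 lower with lactate, against 18.7% and 12% of all genes, and 12 higher and 20 lower without it, against 16.8% and 11.3%. With library totals in place of TMM scaling the split of calls moved from 8 risers and 6 fallers to 12 and 5 with lactate, and from 4 and 13 to 8 and 11 without it. Of all genes, 10.3% then rose and 3.18% fell with lactate, and 9.78% and 3.68% without it. Library totals also moved the median log2 fold change of all tested genes from 0.08 to 0.46 with lactate and from 0.15 to 0.51 without it. In such pools, fewer cells expressing a gene and less of its RNA per cell cannot be told apart. Oocyte-derived mRNA fell with stage as well, with 11 of 12 genes lower in late G&N and a median log2 fold change of -1.15, and its part in the member changes was not tested.

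The promoters of 4 genes with large and opposite stage changes are shown, 5′ to 3′ on the gene's strand in GRCm39. Each is the 250 bases before the start of the annotated canonical transcript. The annotated genes of Snrpc and Snrpd2 begin upstream of their windows, at 28057124 and 18880939. That of Snrpb2 begins within its window, at 142904904. Windows before other annotated starts of these genes were not searched. Capitals mark matches to the searched letters on either strand. Snrpc (chr17:28058782-28059031, plus strand) and Snrpd2 (chr7:18883397-18883646, plus strand) rose in both media, and Snrpd3 (chr10:75353130-75353379, plus strand) and Snrpb2 (chr2:142904709-142904958, plus strand) fell in both.
Snrpc promoter: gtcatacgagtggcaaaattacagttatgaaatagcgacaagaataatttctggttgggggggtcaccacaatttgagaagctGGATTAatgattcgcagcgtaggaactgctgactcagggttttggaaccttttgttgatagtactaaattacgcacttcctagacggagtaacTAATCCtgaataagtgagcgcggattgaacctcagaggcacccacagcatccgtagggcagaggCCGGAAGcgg
Snrpd2 promoter: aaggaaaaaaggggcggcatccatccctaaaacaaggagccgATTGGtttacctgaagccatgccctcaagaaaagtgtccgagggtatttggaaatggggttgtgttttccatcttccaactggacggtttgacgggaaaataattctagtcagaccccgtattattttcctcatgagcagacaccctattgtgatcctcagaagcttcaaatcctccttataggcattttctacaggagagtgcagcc
Snrpd3 promoter: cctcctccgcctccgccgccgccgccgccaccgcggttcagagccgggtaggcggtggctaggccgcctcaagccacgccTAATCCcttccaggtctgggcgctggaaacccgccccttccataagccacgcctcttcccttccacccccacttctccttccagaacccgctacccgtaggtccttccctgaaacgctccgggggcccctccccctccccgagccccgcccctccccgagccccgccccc
Snrpb2 promoter: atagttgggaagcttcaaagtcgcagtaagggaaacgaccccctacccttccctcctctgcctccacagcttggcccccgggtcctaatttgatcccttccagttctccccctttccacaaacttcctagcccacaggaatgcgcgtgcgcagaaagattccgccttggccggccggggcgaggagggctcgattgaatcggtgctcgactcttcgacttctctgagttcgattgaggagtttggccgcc
The letters searched were 5 short motifs, none of which contains another. CCGGAAG, bound by ETS factors, was in 6.87% of 21631 promoters of the same length and in 10 of 58 member promoters (17.2%), among them 3 of the 8 members that rose in G&N (Sf3b6, Snrpc and Srsf7) and 0 of the 6 that fell. In Snrpc it starts at -10. CCAAT, bound by NF-Y, was in 36.5% of all promoters and in 20 of 58 members (34.5%), in 3 of 8 risers (Sf3b6, Snrpb and Snrpd2) and in 0 of 6 fallers. TATAAA, the TATA box, was in 12% of all promoters and in 6 members (10.3%). AAGATGGC, bound by YY1, was in 1.35% of all promoters and in 1 member (1.72%). TAATCC, bound by paired-like homeobox factors, was in 6.98% of all promoters and in 6 members (10.3%), of which Snrpc rose and Snrpd3 fell. The median GC content was 53.2% over all promoters, 56.2% over members, 50.6% over the 8 risers and 61.0% over the 6 fallers. These matches describe the letters in the windows only.

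The lactate comparison at the late stage asked whether splicing genes differed when lactate was withheld. The members were mostly lower in G&N-L than in G&N, but none passed the test. Of 59, 45 had a negative log2 fold change and 14 a positive one, and their median was -0.52, against -0.02 over all 19481 genes tested. By edgeR's quasi-likelihood test, 0 of 59 had an adjusted p under 0.05, as did 0.0% of all genes. At an unadjusted p under 0.05, 17 members were found, against 12% of all genes, and 9 had an adjusted p under 0.05 by DESeq2. By a criterion of unadjusted p under 0.05 and an absolute log2 fold change over 0.5, 16 members were lower and 1 was higher, against 7.63% and 4.23% of all genes. For 38 members the G&N-L pair was below the G&N pair without overlap, and for 6 it was above, against 24.9% and 18.6% of all genes. As a share of all counts, the members made up 0.491% and 0.489% in late G&N-L and 0.650% and 0.681% in late G&N.

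The 7 genes of the Sm ring were all lower in both G&N-L libraries than in either G&N library. Snrpd2 was at 52.4 and 42.0 CPM in G&N-L and at 101 and 121 CPM in G&N (log2 fold change -1.18 ± 0.25 SE, adjusted p = 0.313 by edgeR). Snrpb was at 10.2 and 10.2 CPM in G&N-L and at 16.9 and 33.0 CPM in G&N (log2 fold change -1.23 ± 0.45 SE, adjusted p = 0.372 by edgeR). Snrpe was at 206 and 265 CPM in G&N-L and at 347 and 452 CPM in G&N (log2 fold change -0.71 ± 0.22 SE, adjusted p = 0.335 by edgeR). The libraries did not overlap in any of the 3 genes. Snrpd1 was at 153 and 150.0 CPM against 226 and 251 CPM, Snrpd3 at 44.4 and 34.1 CPM against 46.8 and 56.7 CPM, and Snrpg at 710.0 and 794 CPM against 903 and 925 CPM. Snrpf was at 3.36 and 4.30 CPM against 4.97 and 4.92 CPM, and with the counts of its copies added its log2 fold change went from -0.32 to -0.81 (adjusted p = 0.476 by edgeR). The ring genes therefore differed in size more than in sign, from -1.23 for Snrpb to -0.23 for Snrpg.

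All 13 Snrp genes had a negative log2 fold change, with a median of -0.61. Among them, Snrpert is the pseudogene of Snrpe, and reads of the pair can be split between them. Snrpa held 1193 and 1185 counts in G&N-L and 1259 and 2342 in G&N. Its copy Gm8655 held 509 and 169 counts in G&N-L and 3 and 0 in G&N. Snrpa1 was at 35.0 and 46.0 CPM in G&N-L and at 114 and 110 CPM in G&N (log2 fold change -1.42 ± 0.25 SE, adjusted p = 0.311 by edgeR). Snrpb2, with which it forms a dimer on U2 RNA, was at 103 and 137 CPM against 213 and 218 CPM (log2 fold change -0.80 ± 0.22 SE, adjusted p = 0.332 by edgeR). Both were lower in both libraries without lactate. Snrpc was at 144 and 106 CPM against 118 and 195 CPM and Snrpn at 26.1 and 25.1 CPM against 24.6 and 49.2 CPM, and these overlapped. Without G&N replicate 2 their log2 fold changes were 0.16 and 0.14, so that 11 of 13 Snrp genes were then lower.

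Of the 9 Sf3 genes, 8 were lower, with a family median of -0.73. Sf3b6 was at 96.8 and 57.1 CPM in G&N-L and at 259 and 280.1 CPM in G&N (log2 fold change -1.76 ± 0.31 SE, adjusted p = 0.311 by edgeR). Sf3b5 was at 45.7 and 45.6 CPM against 87.0 and 98.7 CPM (log2 fold change -0.97 ± 0.23 SE, adjusted p = 0.317 by edgeR). Both small subunits, which rose with stage in G&N, were lower without lactate in every library. The rise and the lactate difference use the same late G&N libraries, so these results are not independent. Sf3b1 was at 111 and 155 CPM against 207 and 218 CPM (adjusted p = 0.374 by edgeR), and Sf3a1, of the complex that joins Sf3b in U2, was at 14.7 and 14.3 CPM against 21.7 and 28.1 CPM (adjusted p = 0.544).

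The Lsm family stood nearest to all genes, with 8 members lower, 5 higher and a median of -0.11. Its Lsm10, which replaces an SmD protein in the U7 particle that cuts histone pre-mRNA, was the member that met the criterion upward. It was at 323 and 365 CPM in G&N-L and at 161 and 189.5 CPM in G&N (log2 fold change 1.02 ± 0.19 SE, adjusted p = 0.311 by edgeR). Both libraries without lactate lay above both with it. Lsm5 was at 0.886 and 2.34 CPM against 6.39 and 5.08 CPM (log2 fold change -1.80 ± 0.86 SE, adjusted p = 0.526 by edgeR), and with the counts of its copies added the log2 fold change was -0.56. Lsm7 was at 83.7 and 120.1 CPM against 148 and 155 CPM, and Lsm2 at 106 and 109 CPM against 152 and 155 CPM. Lsm1 was at 221 and 290.3 CPM against 309 and 329 CPM, and Lsm14b at 34.1 and 43.7 CPM against 44.4 and 37.6 CPM, the latter with overlap. Within the family, 5 genes were lower in both libraries, among them Lsm2, Lsm5, Lsm7 and Lsm1, against 24.9% of all genes. Higher in both were 3, against 18.6% of all genes, namely Lsm10, Lsm4 and Lsm11. Lsm4, of the U6 ring, was at 19.3 and 15.3 CPM against 8.04 and 11.3 CPM. Lsm11 was at 2.61 and 6.77 CPM against 2.09 and 2.15 CPM.

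Of the 13 Prpf genes, 8 were lower and 5 higher, with a median of -0.52. Prpf38a, a factor recruited when the tri-snRNP joins, was at 211 and 166 CPM in G&N-L and at 309 and 375 CPM in G&N (log2 fold change -0.80 ± 0.22 SE, adjusted p = 0.332 by edgeR). Prpf4 was at 10.1 and 8.55 CPM against 31.3 and 19.9 CPM (log2 fold change -1.42 ± 0.44 SE, adjusted p = 0.335 by edgeR). Prpf6, which bridges U5 and U4/U6, was at 26.2 and 28.1 CPM against 44.7 and 42.5 CPM, and Prpf8 at 13.2 and 15.6 CPM against 26.0 and 27.8 CPM. These 4 genes were lower in both G&N-L libraries than in either G&N library. Prpf19 was at 3.86 and 2.62 CPM against 2.77 and 2.82 CPM, with overlap.

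Of the 11 Srsf genes, 8 were lower and all 8 without overlap, with a family median of -0.63. Srsf1 was at 15.8 and 24.2 CPM in G&N-L and at 102 and 78.6 CPM in G&N, and had the smallest p of all members (log2 fold change -2.13 ± 0.34 SE, adjusted p = 0.311 by edgeR). Srsf10, a splicing repressor when dephosphorylated, was at 169 and 184 CPM against 294 and 409 CPM (log2 fold change -0.94 ± 0.22 SE, adjusted p = 0.316 by edgeR). Srsf5 was at 100.4 and 118 CPM against 182 and 325 CPM (log2 fold change -1.16 ± 0.30 SE, adjusted p = 0.331 by edgeR). Srsf7 was at 197 and 139.6 CPM against 233 and 442 CPM (log2 fold change -0.94 ± 0.35 SE, adjusted p = 0.375 by edgeR). In each of these genes both libraries without lactate were the lower ones, and the G&N libraries of Srsf5 and Srsf7 differed most from each other.

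**Figure D3:**
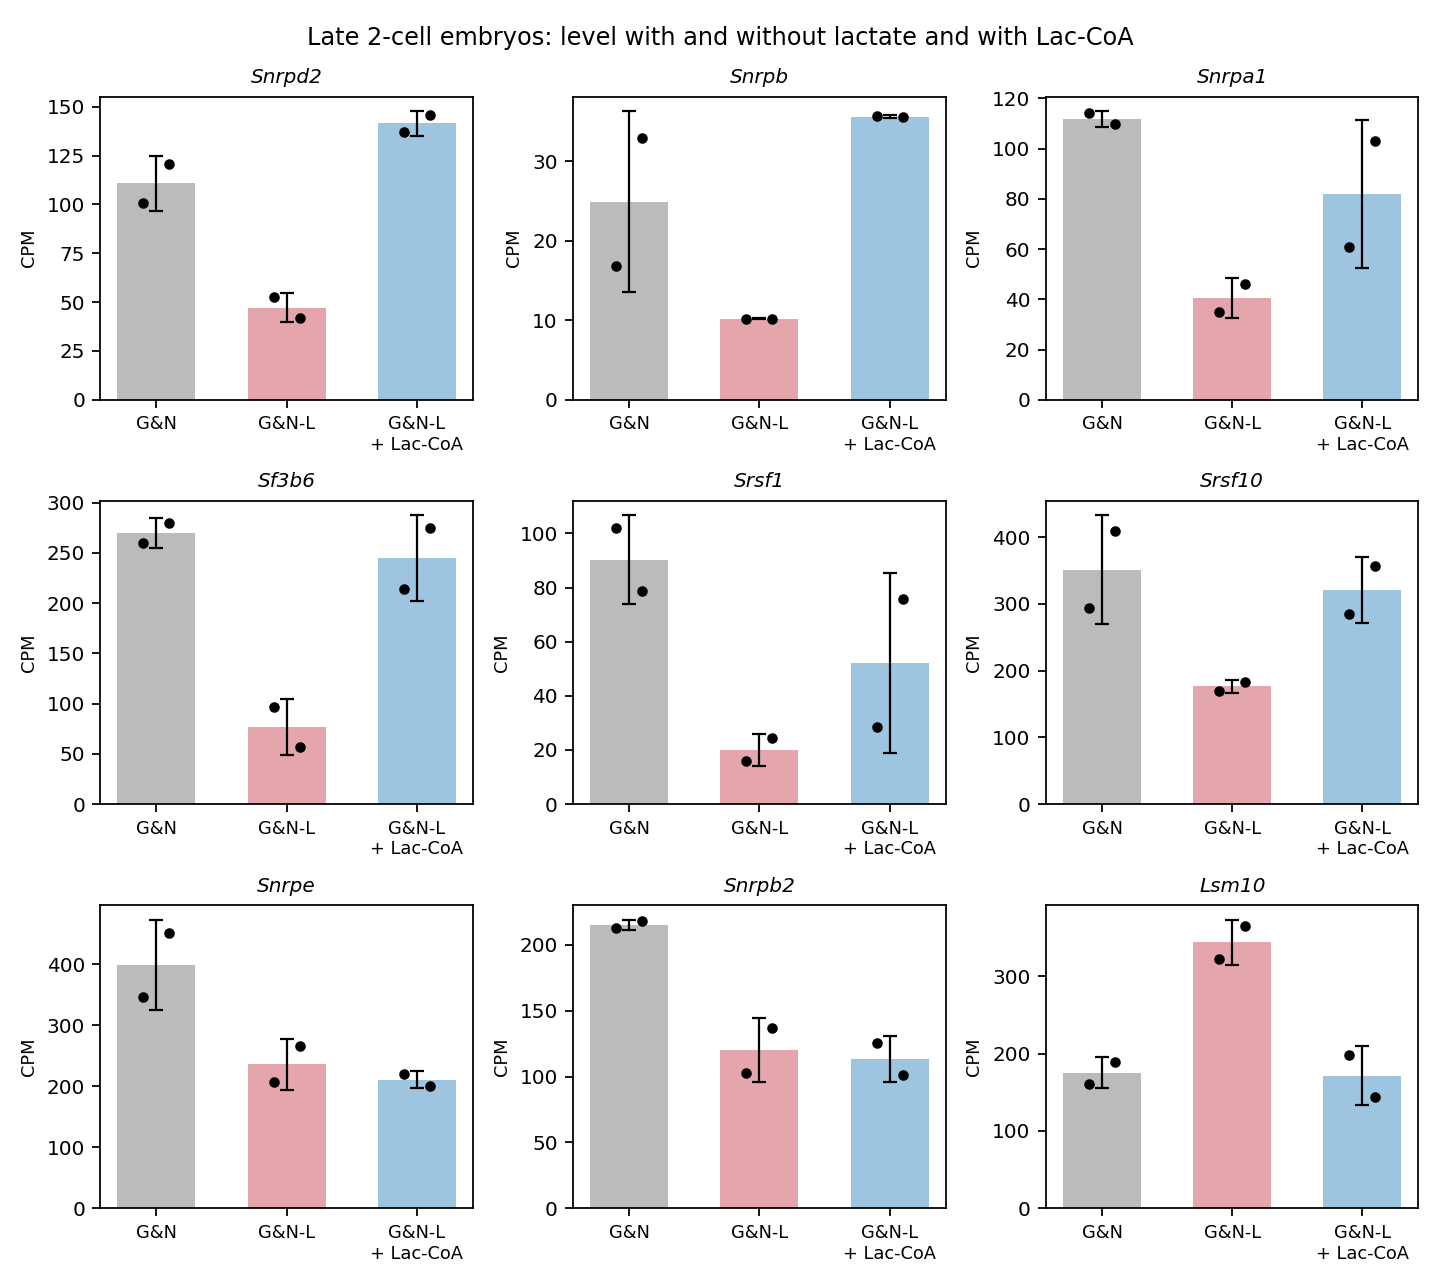
Levels in CPM of 9 members at the late stage in 3 groups (G&N, G&N-L, and G&N-L with Lac-CoA), with points for the 2 libraries, bars for the mean and error bars for the SD. Snrpa1, Sf3b6 and Srsf1 are lowest in G&N-L, whereas Lsm10 is highest there, at 323 and 365 CPM.

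The 9 members called by DESeq2 were Lsm10 upward and Prpf38a, Srsf10, Snrpd2, Snrpa1, Sf3b5, Srsf1, Sf3b6 and Srsf5 downward, against 1.55% and 3.15% of all genes. Without a filter on low counts edgeR called 3 members downward, Snrpa1, Srsf1 and Sf3b6, against 0.871% of all genes lower and 0.225% higher. The median over members was -0.34 without G&N replicate 2, and the number of members lower by the criterion was then 9, and 10 without G&N-L replicate 2. Over all genes the median was then 0.15 and -0.14, and the share lower by the criterion 3.45% and 5.73%. Marker lists moved with the groups. Oocyte-derived mRNA summed to 16820 and 19290 CPM in G&N-L and to 13110 and 15080 CPM in G&N, with 9 of 12 genes higher and a median log2 fold change of 0.36. Of 10 tested genes activated in 2-cell embryos, 8 were higher in G&N-L (median 0.27), and of 6 tested cumulus and granulosa markers, 4 were lower (median -1.61). Among the latter, Fshr held 0 and 1 counts in G&N-L and 12 and 328 in G&N. The part of these lists in the lower member levels was not tested.

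Genes of the same machinery outside the 5 families were taken from lists. Of 63 tested other subunits of the spliceosome, 54 had a negative and 9 a positive late lactate log2 fold change, with a median of -0.62, and 17 met the criterion downward, where 7.63% of all genes did and the median of all genes was -0.02. They included the helicase Dhx8, which releases the spliced mRNA (log2 fold change -3.55 ± 0.32 SE, adjusted p = 0.311 by edgeR), Cwc25, a factor of the first catalytic step (-2.12), and Zmat2, a protein of the tri-snRNP (-1.09). Of 15 genes for assembly of the Sm ring, 11 were lower and 4 higher, with a median of -1.14, and 6 met the criterion downward. Among them were Ddx20 (-2.50) and Gemin2 (-1.96), parts of the SMN complex that loads Sm proteins onto RNA. Tgs1 (-1.45), which methylates the snRNA cap, was also among them. Of 24 hnRNP genes, 18 were lower and 8 met the criterion downward, among them Hnrnph1 (-1.53), Syncrip (-2.07) and Hnrnpa0 (-2.32). Of 14 tested kinases of SR proteins and SR-like proteins, 10 were lower and 4 met the criterion downward, among them Tra2b (-1.26), Srrm1 (-0.76) and Son (-0.72). No gene of these lists passed edgeR's adjusted p, and the smallest was 0.311.

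In early embryos the same question gave a median over 57 tested members of -0.04, with 25 higher and 32 lower in G&N-L, against -0.01 over all genes. By edgeR, 0 members had an adjusted p under 0.05 (2 at an unadjusted p under 0.05, against 4.52% of all genes, and 0 by DESeq2), as did 0.0% of all genes, of which DESeq2 called 0.121% higher and 0.0923% lower. Lsm5 was at 27.4 and 24.7 CPM in G&N-L and at 13.7 and 9.64 CPM in G&N (log2 fold change 1.30 ± 0.32 SE, adjusted p = 1 by edgeR). It was the only member that met the criterion, against 1.82% of all genes upward and 2.69% downward. Lsm10 was at 393 and 366 CPM against 323 and 284 CPM (log2 fold change 0.45 ± 0.17 SE, adjusted p = 1 by edgeR), and Srsf2, which binds purine- and pyrimidine-rich exonic enhancers, was at 8.62 and 8.85 CPM against 19.0 and 16.0 CPM (log2 fold change -0.87 ± 0.36 SE, adjusted p = 1). Libraries without lactate lay below both others for 17 members and above for 3, against 21.6% and 11.4% of all genes.

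Whether the lactate difference itself depended on stage was tested with an interaction term over the 8 G&N and G&N-L libraries. By edgeR, 0 of 59 members had an adjusted p under 0.05, as did 0.0% of all genes, with 13 members at an unadjusted p under 0.05, against 7.55% of all genes, and 3 called by DESeq2 (Lsm5, Snrpa1 and Sf3b6), all lower, against 0.673% of all genes lower and 0.332% higher. By the criterion 12 members had a lower and 1 a higher term, against 3.98% and 3.57% of all genes. The smallest p belonged to Snrpa1, with a term of -1.76 ± 0.34 SE (adjusted p = 0.494 by edgeR). In early embryos both G&N-L libraries of Snrpa1 were above both G&N libraries, and in late embryos both were below them. Sf3b6 followed with -1.87 ± 0.43 SE (adjusted p = 0.536 by edgeR) and Lsm5 with -3.06 ± 0.78 SE (adjusted p = 0.593). With the counts of its copies added, the term of Lsm5 was -1.70. The median over members was -0.19, against 0.06 over all genes. Without early G&N replicate 1 both were lower, at -0.44 and -0.17. Without late G&N replicate 1 they were -0.32 and 0.23, without early G&N replicate 2 they were -0.10 and 0.09, and without late G&N replicate 2 they were -0.10 and 0.24. Oocyte-derived mRNA had a higher term in 10 of 12 genes (median 0.51), and its part in the members' terms was not tested.

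The comparison of Lac-CoA with G&N-L asked whether these genes differed after injection of the lactyl donor in embryos without lactate. No injection is stated for the G&N-L or G&N embryos. In both Lac-CoA comparisons the donor and the injection therefore cannot be told apart. The comparison with G&N-L shares the G&N-L libraries with the lactate comparison. The values of the 3 groups are therefore given side by side and no overlap is drawn. Of 58 tested members 36 were higher and 22 lower with Lac-CoA, with a median of 0.25 against -0.01 over all genes. By edgeR, 0 had an adjusted p under 0.05, as did 0.0% of all genes, with 12 members at an unadjusted p under 0.05, against 13.3% of all genes, and 9 called by DESeq2 (8 higher and 1 lower, against 3.41% and 2.62%). By the criterion 11 members were higher and 1 lower, against 6.89% and 6.29%. Libraries did not overlap for 25 members upward and 12 downward, against 24.8% and 22%.

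Snrpd2 was at 137 and 146 CPM with Lac-CoA, beside 52.4 and 42.0 CPM in G&N-L and 101 and 121 CPM in G&N. Both Lac-CoA libraries lay above both of the other groups (log2 fold change over G&N-L 1.53 ± 0.23 SE, adjusted p = 0.294 by edgeR). Snrpb was at 35.8 and 35.6 CPM with Lac-CoA, beside 10.2 and 10.2 CPM in G&N-L (1.76 ± 0.33 SE, adjusted p = 0.294 by edgeR). Sf3b6 was at 214 and 275 CPM with Lac-CoA (1.61 ± 0.32 SE, adjusted p = 0.294 by edgeR), above both G&N-L libraries and overlapping with G&N. Srsf7 was at 341 and 398 CPM (1.08 ± 0.24 SE, adjusted p = 0.294 by edgeR) and Srsf10 at 285 and 356 CPM (0.81 ± 0.19 SE, adjusted p = 0.294). These genes were higher in both Lac-CoA libraries than in either G&N-L library. Lsm10 went the other way, at 199 and 144.6 CPM with Lac-CoA beside 323 and 365 CPM in G&N-L (-1.05 ± 0.23 SE, adjusted p = 0.294 by edgeR). Snrpc was at 212 and 281 CPM, Prpf38a at 338 and 428 CPM, Sf3b5 at 93.8 and 85.7 CPM and Prpf4 at 20.0 and 21.6 CPM with Lac-CoA, and each was above both G&N-L libraries.

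In the following members Lac-CoA was not above G&N-L. Snrpe was at 221 and 201 CPM with Lac-CoA and Snrpb2 at 126 and 101 CPM, and both overlapped with G&N-L, as did Snrpd3 at 31.4 and 49.7 CPM. Snrpg was at 628 and 485 CPM, below both G&N-L libraries. The Sm ring was accordingly split, with 3 of its 7 genes higher and 4 lower and a median of -0.01. By family, 7 of 13 Snrp, 5 of 13 Lsm, 8 of 9 Sf3, 8 of 13 Prpf and 8 of 10 tested Srsf genes were higher. The Lac-CoA libraries differed from each other in some members. Srsf1 was at 28.6 and 75.6 CPM (1.33 ± 0.53 SE over G&N-L, adjusted p = 0.385 by edgeR) and Prpf8 at 10.5 and 27.4 CPM. Without Lac-CoA replicate 2 the median over members was 0.038, and 7 members met the criterion upward, while the median of all genes was -0.13 and 3.8% of them met it. With library totals the median was 0.36, while that of all genes moved from -0.01 to 0.10. Oocyte-derived mRNA was lower with Lac-CoA, at 14240 and 9895 CPM, with 11 of 12 genes lower and a median log2 fold change of -0.70, and genes activated in 2-cell embryos were higher in 8 of 10 (median 0.39). Their part in the member levels was not tested.

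Against G&N, the Lac-CoA embryos had 21 of 57 tested members higher and 36 lower, with a median of -0.09 against 0.01 over all genes. By edgeR, 0 had an adjusted p under 0.05, as did 0.0% of all genes, with 5 members at an unadjusted p under 0.05, near the 8.51% of all genes, and 3 called by DESeq2 (Snrpe, Snrpb2 and Lsm7, all downward, where 1.04% of all genes were lower and 1.37% higher). The 5 met the criterion downward, against 4.1% of all genes, and none met it upward, against 4.41%. Libraries did not overlap for 5 members upward and 19 downward, against 17.5% and 22.2%. With library totals, 4 members met the criterion downward and 1 upward, against 3.81% and 4.78% of all genes. Lsm7 was at 71.5 and 66.4 CPM with Lac-CoA against 148 and 155 CPM in G&N (log2 fold change -1.04 ± 0.23 SE, adjusted p = 0.5 by edgeR). Snrpe had -0.82 ± 0.22 SE (adjusted p = 0.5 by edgeR), Snrpb2 -0.84 ± 0.23 SE (adjusted p = 0.5), Snrpg -0.62 and Lsm1 -0.54. In these 5 genes both Lac-CoA libraries lay below both G&N libraries. Sf3b6 (-0.05 ± 0.23 SE), Sf3b5 (0.04 ± 0.23 SE) and Srsf10 (-0.04 ± 0.25 SE) overlapped with G&N. The median was -0.26 without Lac-CoA replicate 2 and -0.19 without G&N replicate 1, when that of all genes was -0.11 and 0.083. Genes activated in 2-cell embryos were higher in 9 of 11 (median 0.61) and oocyte-derived mRNA was lower in 10 of 12 (median -0.26) with Lac-CoA, and their part in the member levels was not tested.

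**Figure D4:**
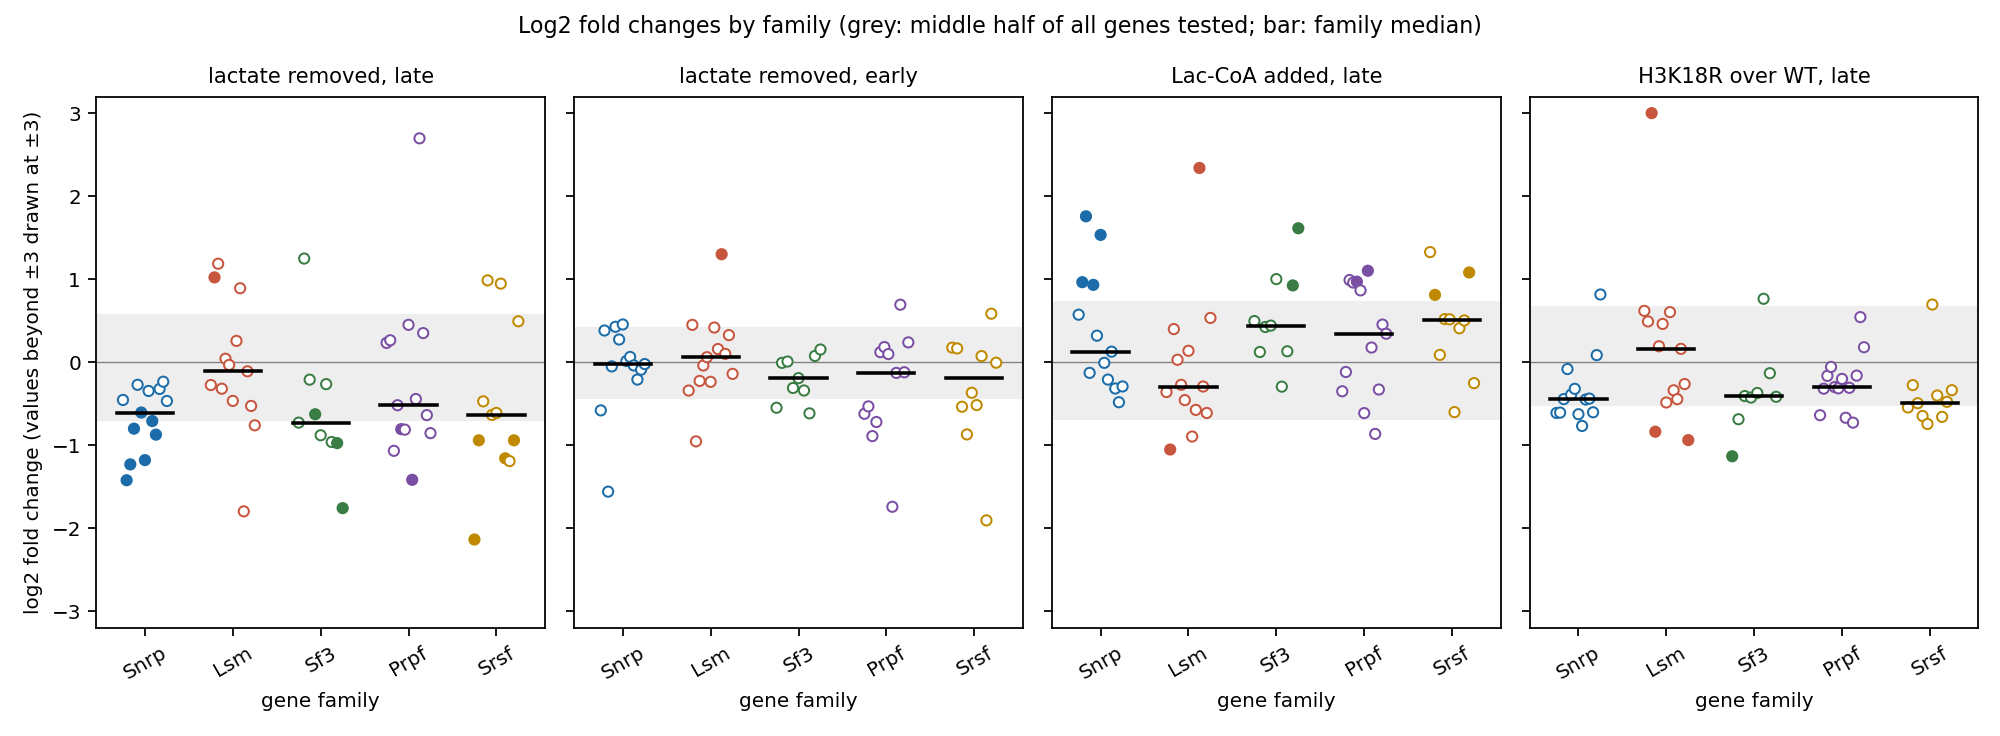
Log2 fold changes of the members by family for late and early G&N-L over G&N, late Lac-CoA over G&N-L, and H3K18R over WT, with points for genes (filled: unadjusted p under 0.05 and an absolute value over 0.5), a bar for the family median and a grey band for the middle 50% of all genes tested, values beyond 3 being drawn at 3. The Snrp, Sf3 and Srsf medians lie below 0 in late G&N-L against G&N, at -0.61, -0.73 and -0.63, and the Lsm median lies nearer to 0, at -0.11.

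The H3K18R and WT comparison asked whether the lysine 18 mutant altered these genes in embryos with no inhibitor stated. Of 57 tested members, 13 were higher and 44 lower in H3K18R, with a median of -0.37 against 0.03 over all genes. By edgeR, 0 had an adjusted p under 0.05, against 0.00565% of all genes, with 4 members at an unadjusted p under 0.05, near the 6.44% of all genes, and 0 called by DESeq2, which called 0.491% of all genes higher and 0.175% lower. By the criterion 3 members were lower and 1 higher, against 2.67% and 3.77%. Both H3K18R libraries lay below both WT libraries for 26 members and above for 9, each against 19.5% of all genes.

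Sf3a1 was at 19.5 and 17.9 CPM in H3K18R and at 37.1 and 45.0 CPM in WT (log2 fold change -1.13 ± 0.35 SE, adjusted p = 0.734 by edgeR). Lsm8, which sets the U6 ring apart from the Lsm1 ring, was at 60.4 and 57.4 CPM against 94.6 and 132 CPM (-0.94 ± 0.31 SE, adjusted p = 0.734 by edgeR). Lsm12, named here after its value was seen because it is the other gene of the criterion, had -0.84 ± 0.31 SE (adjusted p = 0.746 by edgeR). These 3 genes were lower in both mutant libraries. Lsm11, the other Lsm protein of the U7 particle, was counted 57 and 60 times in the mutant libraries, against 2 and 0 times in WT. Its ratio of summed counts per total was 74.1, with a 95% exact interval of 20.1 to 619 that covers counting error only (adjusted p = 0.734 by edgeR), and it varied as widely in the Lac-CoA group, with 8 and 548 counts.

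The H3K18R libraries differed from each other more than the WT libraries did for many members. Snrpa1 was at 244 and 150.2 CPM in H3K18R and at 336 and 266 CPM in WT, Sf3b6 at 727 and 404 CPM against 769 and 747 CPM, and Srsf7 at 959 and 586 CPM against 1067 and 1091 CPM. In each gene the mutant libraries were the lower ones, with replicate 2 the lowest. Snrpd2 was at 180 and 104 CPM against 203.5 and 236 CPM, and Srsf1 at 164 and 126 CPM against 194 and 232 CPM. Without H3K18R replicate 2 the median over members was -0.054, above the -0.096 of all genes. Without replicate 1 it was -0.62, against -0.057 over all genes, and 24 members met the criterion downward, where 7.99% of all genes did. Without either WT library no member met it downward, and 0.761% and 0.831% of all genes did. Oocyte-derived mRNA summed to 3986 and 8221 CPM in H3K18R and to 3612 and 3704 CPM in WT, so it was also higher in replicate 2, and its part in the difference was not tested.

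Across all 14 libraries, the members took their largest share of counts in WT, at 1.04% and 1.03%, and their smallest in late G&N-L. The late groups differ in injection and medium, so that WT and G&N are not compared by test. The families were mixed in their course. Snrpd1, Snrpd3, Snrpb2, Lsm3 and Sf3b1 were highest in the 4 early libraries. Snrpa1, Snrpb, Snrpd2, Sf3b6, Prpf4, Srsf1, Srsf5 and Srsf7 were highest in the WT libraries, with Srsf7 at 1067 and 1091 CPM and Sf3b6 at 769 and 747 CPM there. In late G&N-L, Snrpa1 had its lowest level of all groups, at 35.0 and 46.0 CPM, below the 52.6 to 72.8 CPM of the early libraries.

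**Figure D5:**
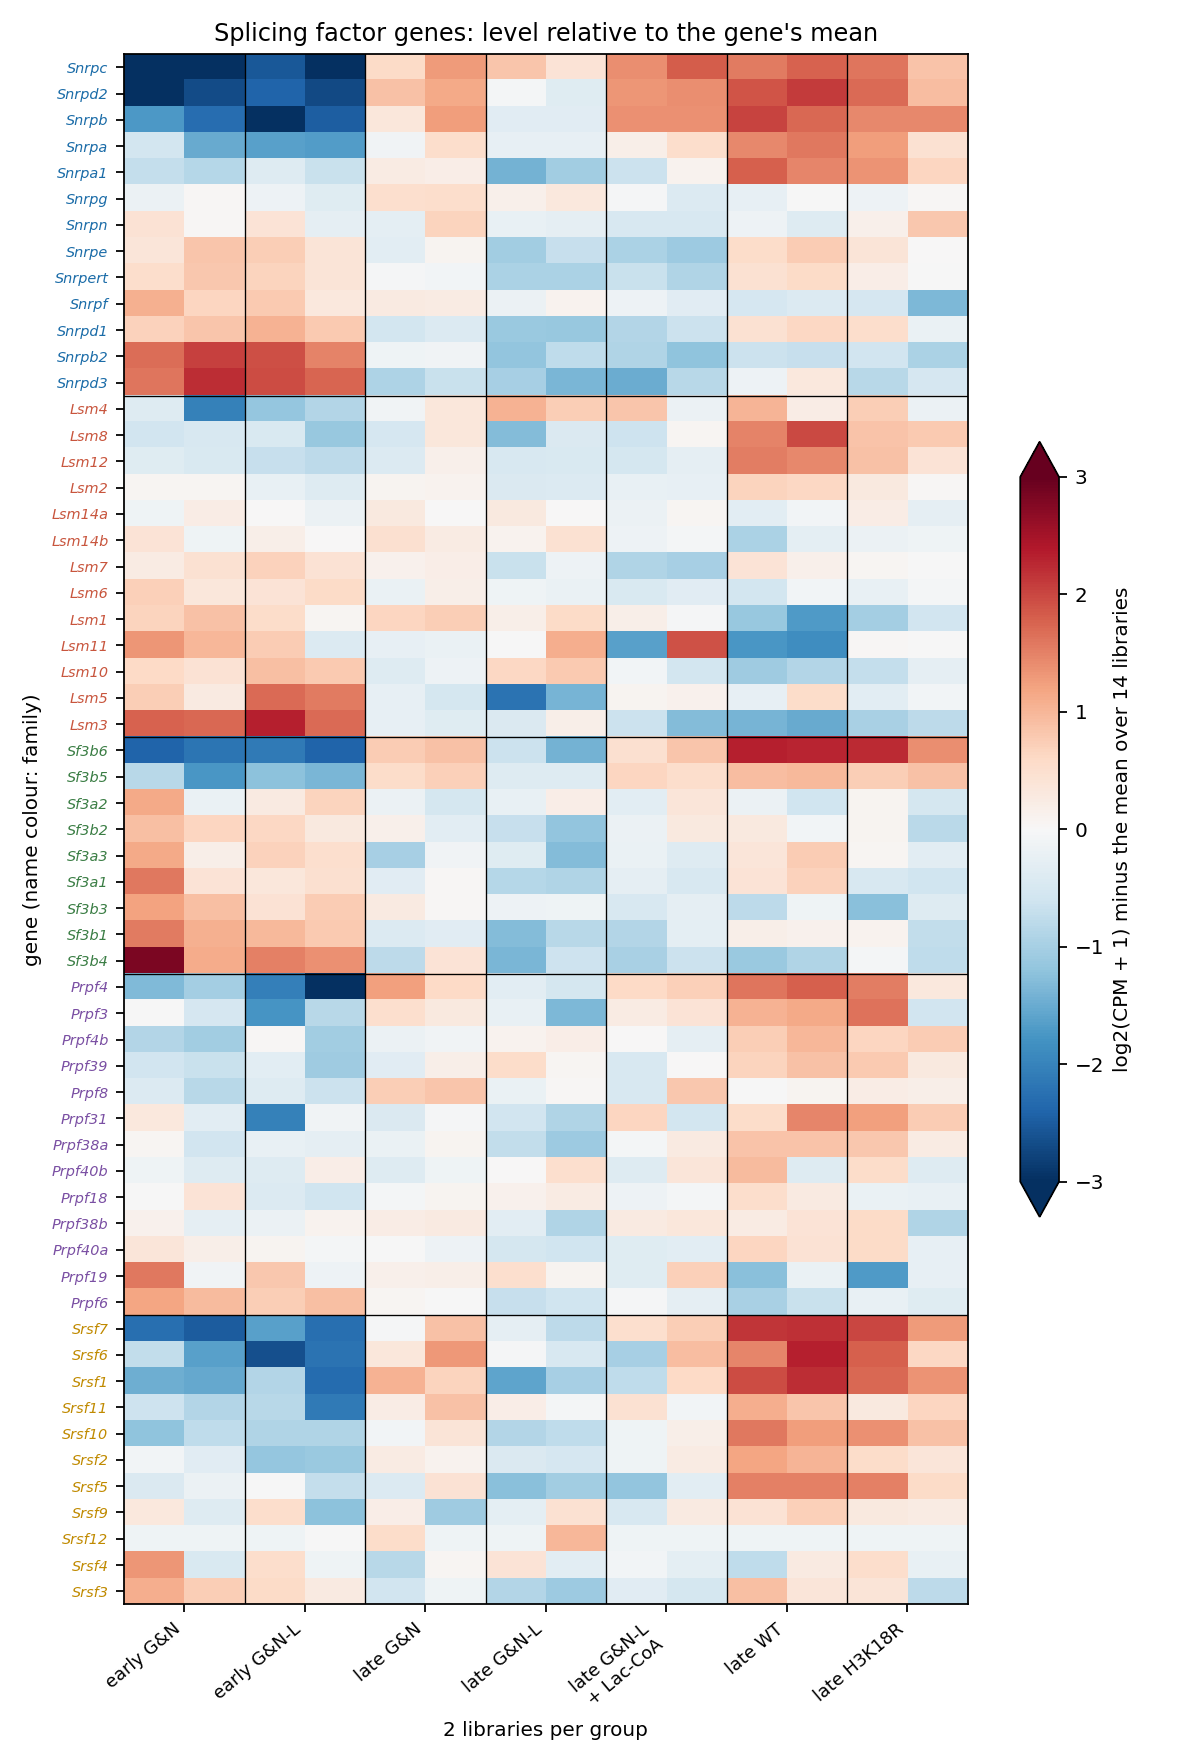
Level of each of the 59 members in the 14 libraries, as log2(CPM + 1) relative to the gene's mean over libraries, with genes grouped by family and 2 columns per group. Snrpb2, Snrpd3, Lsm3 and Sf3b1 are high in the 4 early libraries and lower later, and Snrpd2, Sf3b6, Srsf7 and Srsf1 are low early and highest in WT.

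The members were also divided by a ratio from libraries outside the late lactate comparison, the level in late WT over that in early G&N with 1 CPM added to each. This sorts genes by level only, since the groups differ in injection and medium. Of 23 members at least 2 times higher in WT, 20 had less mRNA without lactate at the late stage, with a median of -0.94, and 11 met the criterion downward. Among the 5463 other genes tested with such a ratio, 71.9% were lower, with a median of -0.55, and 17.8% met the criterion downward. Of 12 members at most 0.5 times as high in WT, 8 were lower, with a median of -0.30, whereas of 5326 other genes 32% were lower, with a median of 0.28. Of the 24 members between, 17 were lower with a median of -0.45, against 49.3% of 8633 other genes and a median of 0.01. The order of the 3 medians was thus shared by all genes, and the members' median was the lower one in each class. With Lac-CoA over G&N-L the members' medians were 0.93, -0.12 and 0.12 in the same order of classes, and those of the other genes were 0.59, -0.52 and -0.01. The division was made with these results known, and the medians are given as a description.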

How the data were processed

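RNA-seq was analysed in 14 libraries of pooled 2-cell embryos, 2 in each of 7 groups, grouped by their titles. The deposited values are raw counts per gene, which the authors obtained with featureCounts from reads trimmed by Trim Galore and placed on mm39 by HISAT2. Tool versions and the strand setting of the counting are not given in the sources used here. The columns of one group are named K18A and were matched to the H3K18R titles, and the treatment tags of the early and Lac-CoA libraries differ from their titles, which were followed. The members and lists were chosen with earlier results of these data known.

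Fits used the 4 libraries of a comparison, or 8 for the interaction, and the quasi-likelihood test of edgeR 4.0.16 (R 4.3.3, limma 3.58.1) after filterByExpr and TMM scaling, with Benjamini-Hochberg adjustment over all genes tested. Values of 2 libraries against 2 cannot give an exact two-sided permutation p under 0.333, so no such test was used. Levels are CPM on TMM-scaled totals of all 14 libraries, and per kb they use the canonical transcript of GENCODE vM39, in which 56236 of 56923 gene identifiers and all 59 members were found. A gene without counts allows up to 3 counts in a library, and this limit covers counting error only. Near-identical copies were found with blastn 2.17.0+. Tables and plots used Python 3.11.15, pandas 2.3.3, numpy 2.4.6, scipy 1.17.1 and matplotlib 3.10.9.

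The test was checked on simulated counts. Few genes were changed there, all drawn from genes above a minimum mean count. The simulated spread between libraries followed its trend with level, without differences between single genes. The rates below hold for that setting and were not measured on the members. In the late lactate comparison, over 17762 genes, it recovered 39.4% of 99 genes changed by 2 on the log2 scale and 70.1% of 97 changed by 4, with 3 false calls. In the G&N stage comparison, over 17863 genes, it recovered 26.0% of 100 and 69.7% of 99, with 4 false calls.

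Genes were named by rule. These were the 4 smallest p-values per family in the late lactate comparison, the 2 largest rises and falls per family among those called between G&N stages, up to 5 called genes or else the 3 smallest p-values in other comparisons, the 3 smallest p-values per list, and a fixed set (the Sm ring, Snrpn, Sf3b1, Prpf8, Prpf19, Lsm1, Lsm14b and Srsf1). Any further member was picked with its values in view. The alternatives tried were DESeq2 1.42.0, its size factors within edgeR, library totals, no filter, a fit of all 14 libraries, a block on replicate number, omission of each library in turn, and, added after seeing the data, copies added to the member's counts. A sequence comparison of 1 other pair is not reported here.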

Additional observations from a re-analysis of the deposited data

Results flagged for a closer look

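For 4 members both libraries without lactate lay on one side of both libraries with lactate in early embryos and on the other side in late embryos. The interaction term between stage and lactate, on the log2 scale, was -1.76 for Snrpa1 (adjusted p = 0.494 by edgeR), -3.06 for Lsm5 (adjusted p = 0.593), 2.18 for Lsm11 (adjusted p = 0.686) and 0.89 for Prpf18 (adjusted p = 0.675), so that none of the differences passed the test. Snrpa1 and Lsm5 were higher without lactate early and lower late, and Lsm11 and Prpf18, a second-step splicing factor, were lower early and higher late. Prpf18 was at 22.9 and 20.0 CPM without and 30.2 and 40.8 CPM with lactate early, and at 33.6 and 36.4 CPM without and 29.4 and 32.2 CPM with lactate late. Lsm11 was at 5.17 and 1.72 CPM without and 8.10 and 6.29 CPM with lactate early, and at 2.61 and 6.77 CPM without and 2.09 and 2.15 CPM with lactate late. Over all genes, libraries without lactate lay above both others for 11.4% early and 18.6% late. They lay below for 21.6% early and 24.9% late. The share of all genes on opposite sides at the 2 stages was not computed. With 2 libraries a group, a pair of groups can be apart by the spread of libraries alone.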

How the results depend on the processing

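DESeq2 gave more members with an adjusted p under 0.05 than edgeR, with 9 for late G&N-L over G&N, 9 for Lac-CoA over G&N-L, 3 for Lac-CoA over G&N, 26 for late over early G&N, 32 for late over early G&N-L and 3 for the interaction, and 0 in the other 2 comparisons. Without the filter on low counts edgeR called 3 in the late lactate comparison and 4 in the interaction, against 1.1% and 1.11% of all genes. The cause of these differences was not tested. With library totals the median over members was 0.36 for Lac-CoA over G&N-L, 0.30 for late over early G&N and 0.23 for late over early G&N-L, where it had the other sign. The Lac-CoA over G&N-L median was 0.18 without a filter, and the Lac-CoA over G&N median was -0.18 with all 14 libraries in 1 fit.

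With single libraries left out, the median ranged from -0.57 to -0.34 for late G&N-L over G&N, from -0.12 to -0.029 for early G&N-L over G&N, from 0.038 to 0.32 for Lac-CoA over G&N-L, from -0.26 to -0.037 for Lac-CoA over G&N, from -0.62 to -0.054 for H3K18R over WT, from -0.15 to 0.17 for late over early G&N, from -0.42 to 0.057 for late over early G&N-L (0.057 without early G&N-L replicate 1) and from -0.44 to -0.10 for the interaction. The median of all genes moved with it, from -0.10 to 0.62 between G&N stages and from 0.14 to 0.54 between G&N-L stages. The number called ranged from 2 to 12 and from 4 to 10 in the stage comparisons with and without lactate, and was 0 in the others. In both stage comparisons the share of all genes called also fell when any 1 library was left out. A group of 1 library was taken to vary like the others.

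Same-numbered libraries did not deviate together (r from -0.051 to 0.008). No pairing by number was thus seen, which does not show that there was none. With the replicate number as a block, 11 members were called between G&N stages and 14 between G&N-L stages, and 0 elsewhere. Over all genes the shares called were then 9.46% and 7.48%. The Lac-CoA over G&N-L median of the members was 0.17 with that block.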

Other observations

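The genes listed for assembly of the Sm ring were also compared between the other groups, as values with no explanation. Of 15 such genes, 11 were higher and 4 lower with Lac-CoA than in late G&N-L. Their median log2 fold change was 0.87, against -0.01 over all genes. By the criterion used above (p under 0.05 before adjustment, log2 fold change over 0.5), 5 were higher, against 6.89% of all genes. In H3K18R over WT, 4 were higher and 11 lower, with a median of -0.45 against 0.03 over all genes. None met the criterion, where 2.67% of all genes met it downward and 3.77% upward. Of 63 other subunits of the spliceosome, 45 were higher and 18 lower with Lac-CoA than in G&N-L. Their median was 0.35, against the same -0.01, and 10 met the criterion upward, against the same 6.89%.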
